A study of Mus musculus with 6 samples.

Results

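Members of the phosphoinositide 3-kinase (PI3K) pathway were followed in B cells of the spleen from WT BALB/c mice, cultured for 4 hours with the TLR9 agonist CpG ODN 1826 at 10 μg/mL or without stimulus. A total of 9 genes was chosen by symbol, of 23420 genes in the deposited tables: the catalytic subunits Pik3cd and Pik3cg, the regulatory subunits Pik3r1 and Pik3r5, the adaptor Pik3ap1, the inhibitor Pik3ip1, the lipid phosphatases Inpp5d and Inpp4b, and the kinase Akt1. All 9 were found in each table. There were 3 CpG-stimulated and 3 unstimulated samples, each of 10 M bead-purified cells cultured at 10 M per mL. The labels name 3 mice aged 7 to 11 weeks, and whether a sample was a pool of mice was not established here. Replicates 1 and 2 of both groups were female and replicate 3 was male, and the labels give WT for both groups. It is not given whether cultures with the same number came from the same mouse.

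Class I PI3Ks phosphorylate the membrane lipid PI(4,5)P2 to PIP3, which recruits kinases such as AKT, PDK1 and BTK to the membrane. Each catalytic subunit is held by a regulatory subunit. In B cells, PI3K is recruited by the adaptor BCAP after engagement of the antigen receptor, and BCAP also links TLRs to PI3K. The signal is limited by phosphatases that remove PIP3 or its product PI(3,4)P2. One outcome of AKT activity is that FOXO transcription factors, which keep lymphocytes at rest, are excluded from the nucleus.

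Values are log2 CPM (counts scaled to the library total) after quantile normalization by the authors, so the depth of each sample is not in them. The value of a gene without reads corresponds to a common library of 17.8 M reads. The lowest value of any of the 9 genes, 3.53, is worth 205 reads on that scale. All 7 B cell markers had a mean above the value of 10 reads, with summed levels of 3706 to 4356 CPM in unstimulated and 2438 to 2796 CPM in stimulated samples. Of 8 T cell markers, 1 (Cd5) had a mean above the value of 10 reads, and Cd3e, Cd4, Cd8a and Cd8b1 were at or under the value of 3 reads in every sample. Summed myeloid markers, of which Cst3 had the highest value, ranged from 123 to 164 CPM in unstimulated and from 48 to 67.8 CPM in stimulated samples. The myeloid markers did not move together. Cst3 went from a mean of 7.07 to 5.51 log2 CPM, and Csf1r and Cd14, at low levels, were also lower with CpG. Adgre1 went up from a mean of 2.34 to 3.16 log2 CPM, and its groups overlapped, as did those of Lyz2 and Itgam. Summed plasma cell markers ranged from 828 to 1182 CPM without and from 468 to 602 CPM with CpG, and those of plasmacytoid dendritic cells from 38.0 to 41.9 and from 24.4 to 26.0 CPM. Summed NK cell markers were at 0.206 to 0.312 CPM without and at 0.715 to 1.40 CPM with CpG, but these markers did not move together. Klrb1c was between -4.90 and -4.27 log2 CPM without and between -0.84 and 0.23 with CpG. Klrd1 went the other way, at -2.85, -2.235 and -3.198 without and -5.576, -5.096 and -3.198 with CpG in replicates 1, 2 and 3. Ncr1 and Gzma were at or under the value of 3 reads in every sample. The highest plasmacytoid marker was Pacsin1, and Siglech was between -4.42 and -2.16 log2 CPM in the 6 samples. None of these sums overlapped between the groups, and their part in the results was not tested. Replicate 2 of both groups stood apart by erythroid transcripts: Beta-s (now Hbb-bs) was at 11.76 and 12.16 log2 CPM there and between 8.46 and 9.10 in the other samples. Since these are bulk samples, fewer cells of a type and less RNA per cell cannot be told apart.

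CpG lowered 7 of the 9 PI3K genes and raised 1, Akt1. The largest changes of the 9 were in an inhibitor and a phosphatase: Pik3ip1 was lowered 8.85-fold and Inpp5d 7.21-fold. The class I subunits Pik3cg and Pik3r1 were lowered 3.67-fold and 3.10-fold, whereas Pik3cd, the class I catalytic subunit with the highest level per exon length, was lowered 1.56-fold. Pik3r5 did not pass the test. The test was limma, and p values were adjusted after Benjamini and Hochberg over 11233 genes to a false discovery rate (FDR). At an FDR under 0.05, 74.3% of all genes tested were called, 37.6% as raised and 36.7% as lowered. The share of members called, 8 of 9, is near this background. With a log2FC beyond 1 in either direction, 4 of the 9 genes were called, against 31.2% of all genes tested. All 4 were lowered, where 15.3% of all genes tested were lowered to that extent and 15.8% raised. The median log2FC was -0.83 over the 9 genes and 0.0033 over all genes tested. Stimulated and unstimulated samples did not overlap in 8 of the 9 genes, against 77.7% of all genes tested. Without both samples of replicate 2, an alternative added after the data were seen, the same numbers of genes, 8 and 4, were called at the 2 thresholds.

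**Figure D1:**
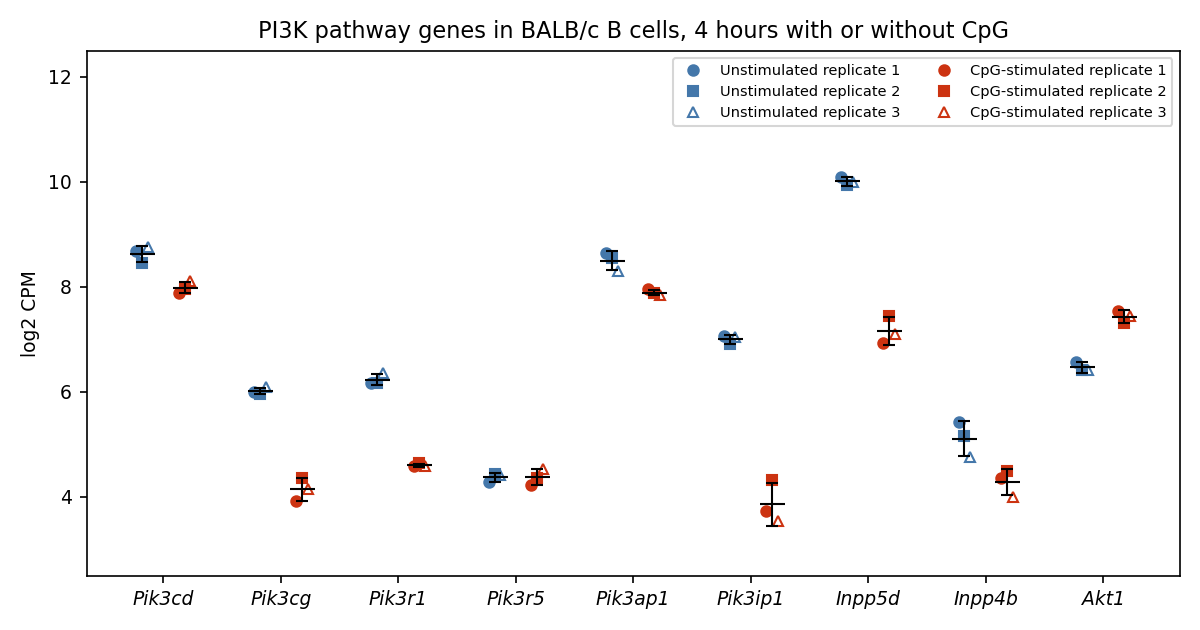
Expression of the 9 PI3K genes in each sample, in log2 CPM. Blue symbols are unstimulated and red symbols CpG-stimulated samples, the shape gives the replicate number, and black bars show the mean and SD of 3 samples; both groups lie apart for every gene except Pik3r5, and Akt1 is the one gene with the red symbols on top.

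Pik3cd encodes p110δ, the main catalytic subunit for antigen receptor signals in B cells, and lies on the minus strand of chromosome 4 (GRCm38, 149649168 to 149702571, up to 25 exons). It was at 8.68, 8.46 and 8.76 log2 CPM in unstimulated replicates 1, 2 and 3, and at 7.89, 7.97 and 8.11 in the stimulated ones. Every stimulated sample was below every unstimulated sample, and the gap between the groups was 0.36. The log2FC was -0.65 (standard error 0.09, 95% confidence interval -0.84 to -0.45, FDR = 7.59e-05). Of all genes tested, 24.2% had a lower or equal log2FC.

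Pik3cg encodes p110γ, which is coupled to G protein-coupled receptors, and lies on chromosome 12 from 32173473 to 32208659. Its values were 6.01, 5.97 and 6.09 log2 CPM without and 3.92, 4.37 and 4.14 with CpG. The unstimulated samples spanned 0.12, and the gap to the highest stimulated sample was 1.597. The log2FC of -1.88 (standard error 0.11, FDR = 2.07e-07) placed Pik3cg among the lowest 5.05% of all genes tested. The confidence intervals of Pik3cd and Pik3cg, -0.84 to -0.45 and -2.12 to -1.63, did not overlap. On a scale per exon length, the log2 difference of Pik3cd over Pik3cg within a sample was 3.10, 2.93 and 3.10 in unstimulated and 4.39, 4.03 and 4.39 in stimulated replicates 1, 2 and 3, without overlap.

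Pik3r1, on the minus strand of chromosome 13 from 101680563 to 101768217, encodes p85α and its shorter forms p55α and p50α, which bind class IA catalytic subunits and keep them stable and inactive until they are recruited. A value per gene cannot separate these forms. Unstimulated samples had 6.17, 6.18 and 6.36 log2 CPM, and stimulated samples 4.59, 4.64 and 4.58. The stimulated values were the closest of all 9 genes (SD 0.03, n = 3). With a log2FC of -1.63 (standard error 0.08, 95% confidence interval -1.80 to -1.47, FDR = 5.77e-08), Pik3r1 was lowered more than its main partner in B cells, Pik3cd. Within each sample, Pik3cd exceeded Pik3r1 by 3.19, 2.97 and 3.09 log2 units per exon length without CpG and by 3.99, 4.02 and 4.21 with CpG. The level of Pik3r1 per length was thus below that of Pik3cd in all 6 samples, and the mean difference was 0.99 larger with CpG. These are transcript levels, and protein was not measured.

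Pik3r5 encodes p101, the regulatory partner of p110γ, and lies on chromosome 11 from 68432121 to 68497849. It was at 4.28, 4.44 and 4.41 log2 CPM in unstimulated and at 4.23, 4.36 and 4.54 in stimulated samples. The groups overlapped. The log2FC was -0.0027, with a 95% confidence interval of -0.23 to 0.22 (FDR = 0.983), and the log2FC of Pik3cd lies outside that interval. Its sign turned when single samples were left out. The order of Pik3cg and Pik3r5 per exon length differed between the groups: Pik3cg was above Pik3r5 by 1.12, 0.92 and 1.08 log2 units in unstimulated replicates 1, 2 and 3, and below it by a difference of -0.912, -0.588 and -0.997 in the stimulated ones. Pik3r6, which encodes the alternative partner p84, was under the value of 3 reads in all 6 samples and was not tested.

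Pik3ap1 encodes BCAP, the cytosolic adaptor that brings PI3K to the antigen receptor complex and to TLRs. It lies on the minus strand of chromosome 19 from 41272377 to 41385102. Values were 8.65, 8.55 and 8.31 log2 CPM without CpG and 7.95, 7.89 and 7.84 with CpG, and the groups did not overlap. A log2FC of -0.61 (standard error 0.09, FDR = 9.76e-05) made it the least changed of the 7 lowered genes.

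Pik3ip1 encodes a transmembrane protein that binds and inhibits the p110 subunits. It is located on the plus strand of chromosome 11 from 3330401 to 3342971 and has up to 6 exons. Unstimulated replicates 1, 2 and 3 had 7.07, 6.91 and 7.04 log2 CPM, and stimulated ones 3.73, 4.32 and 3.53. Stimulated replicate 2 was the highest of its group and lay 2.59 below the lowest unstimulated sample. The log2FC was -3.15 (standard error 0.17, 95% confidence interval -3.52 to -2.77, FDR = 1.19e-07), and 0.596% of all genes tested had a log2FC this low. Without both replicate 2 samples it was -3.42. In unstimulated cells Pik3ap1 exceeded Pik3ip1 by 1.19, 1.26 and 0.89 log2 units per exon length. After CpG these differences were 3.84, 3.18 and 3.93, a mean difference larger by 2.54 and without overlap between the groups.

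Inpp5d encodes SHIP-1, a phosphatase that removes the 5′ phosphate of PIP3 and that inhibitory receptors such as FcγRIIB recruit in B cells. The gene is on chromosome 1, plus strand, between 87620312 and 87720507. Unstimulated samples had 10.10, 9.94 and 10.00 log2 CPM. With CpG it was at 6.93, 7.46 and 7.10. Replicate 2 was again the highest stimulated sample, with a gap of 2.48 to the lowest unstimulated one. The log2FC was -2.85 (standard error 0.12, 95% confidence interval -3.11 to -2.59, FDR = 3.57e-08), and leaving out single samples or replicate 2 of both groups gave values between -3.04 and -2.74.

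Inpp4b encodes a phosphatase of PI(3,4)P2, the lipid that SHIP-1 produces. Its gene is long, on chromosome 8 from 81342556 to 82127914. It was at 5.43, 5.15 and 4.75 log2 CPM in unstimulated and at 4.37, 4.49 and 4.00 in stimulated replicates 1, 2 and 3. Here replicate 3 was lowest in both groups, and the gap between the groups, 0.27, was the smallest of the 8 genes called. The spread of the unstimulated samples (SD 0.34, n = 3) was the largest of the 9 genes in that group. The log2FC was -0.83 (standard error 0.17, 95% confidence interval -1.22 to -0.44, FDR = 0.00155).

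Akt1 encodes the serine/threonine kinase that PIP3 brings to the membrane, and lies on the minus strand of chromosome 12 from 112653821 to 112674884. Unstimulated samples were at 6.58, 6.41 and 6.41 log2 CPM and stimulated samples at 7.55, 7.31 and 7.44. All stimulated samples were above all unstimulated ones. The increase was 1.95-fold, or a log2FC of 0.96 (standard error 0.08, 95% confidence interval 0.79 to 1.14, FDR = 1.90e-06), and 83.4% of all genes tested had a log2FC this high or lower. The value lay just under a log2FC of 1, and leaving out samples gave 0.91 to 1.03.

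**Figure D2:**
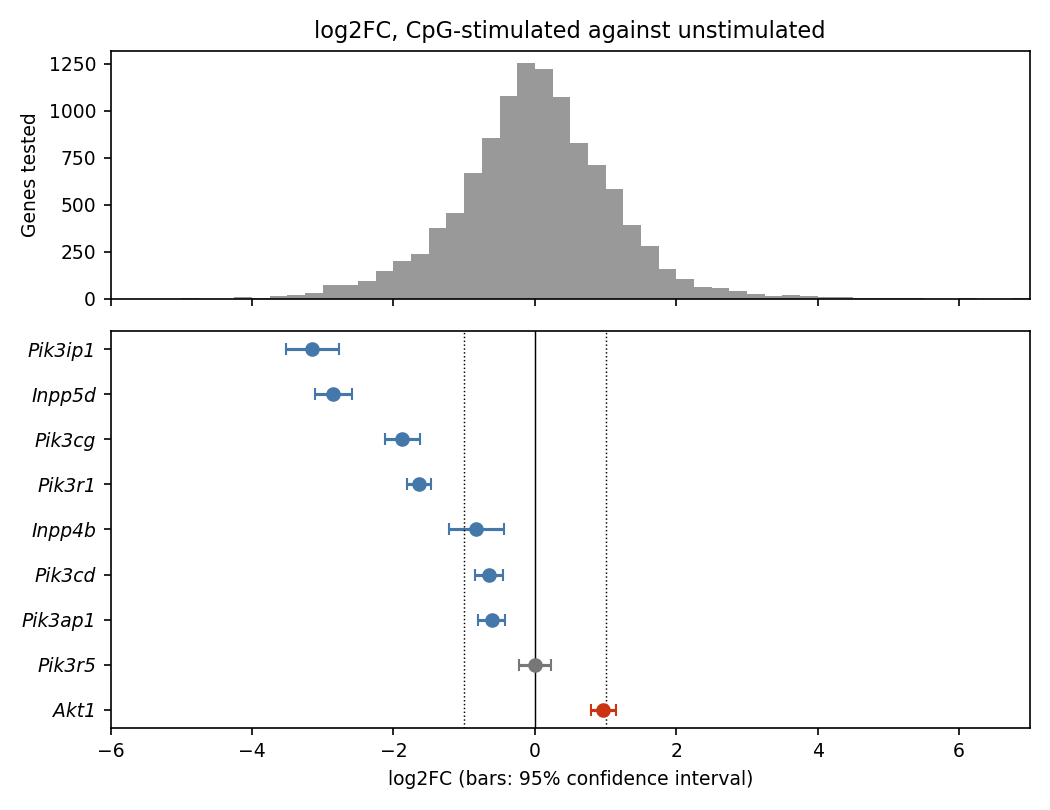
Upper panel, number of genes tested by log2FC of CpG-stimulated against unstimulated samples; lower panel, log2FC of the 9 PI3K genes with 95% confidence intervals, blue for lowered, red for raised and gray for not called. Dotted lines mark a log2FC of -1 and 1; Pik3ip1 (-3.15) and Inpp5d (-2.85) lie in the left tail of all genes, and the interval of Pik3r5 spans 0.

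Because the authors' values are not corrected for gene length, levels of different genes were compared after subtraction of the log2 of the exon length in kb (union of exons in GENCODE M21). The transcripts in use were not measured, so the order of genes at close levels depends on these lengths. Summed over the 4 class I catalytic genes, Pik3cd made up 74.6% ± 1.42 of the transcripts in unstimulated and 80.0% ± 0.40 in stimulated samples (SD, n = 3 each), with all 3 stimulated shares above all unstimulated ones. Pik3ca, which encodes p110α, contributed 16.0% ± 1.02 and 15.5% ± 0.88, which overlapped. The share of Pik3cg went from 9.06% ± 0.46 to 4.17% ± 0.63 (SD, n = 3), and Pik3cb, which encodes p110β, was below 0.6% in every sample. Among the class IA regulatory genes Pik3r1 held 62.5% ± 1.54 without and 56.3% ± 6.60 with CpG (SD, n = 3), with overlap between groups, and Pik3r2 most of the rest. Per length, Pik3r1 was above Pik3r2 in each of the 6 samples.

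Akt1 was compared with Akt2, which encodes a related AKT kinase, on the same scale. In unstimulated replicates 1, 2 and 3, Akt1 was at 4.54, 4.38 and 4.38 log2 CPM per kb and Akt2 at 4.65, 4.55 and 4.62. In stimulated ones, Akt1 was at 5.51, 5.27 and 5.41 and Akt2 at 4.38, 4.48 and 4.42. The level of Akt1 was thus below that of Akt2 in each unstimulated sample and above it in each stimulated sample. The unstimulated levels were close, and their order holds for the exon lengths used, 4.098 kb for Akt1 and 7.131 kb for Akt2. Inpp5d was at 7.18, 7.01 and 7.07 log2 CPM per kb without and at 4.01, 4.53 and 4.17 with CpG, and Inppl1, which encodes the related phosphatase SHIP-2, at 3.79, 3.68 and 3.84 and at 2.995, 3.204 and 3.103. Inpp5d was above Inppl1 in all 6 samples, by a smaller distance in every stimulated sample. Between the phosphatases of PI(3,4)P2, Inpp4b held 61.9% ± 6.70 and 64.6% ± 1.71 (SD, n = 3), Inpp4a the rest, and the groups overlapped.

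**Figure D3:**
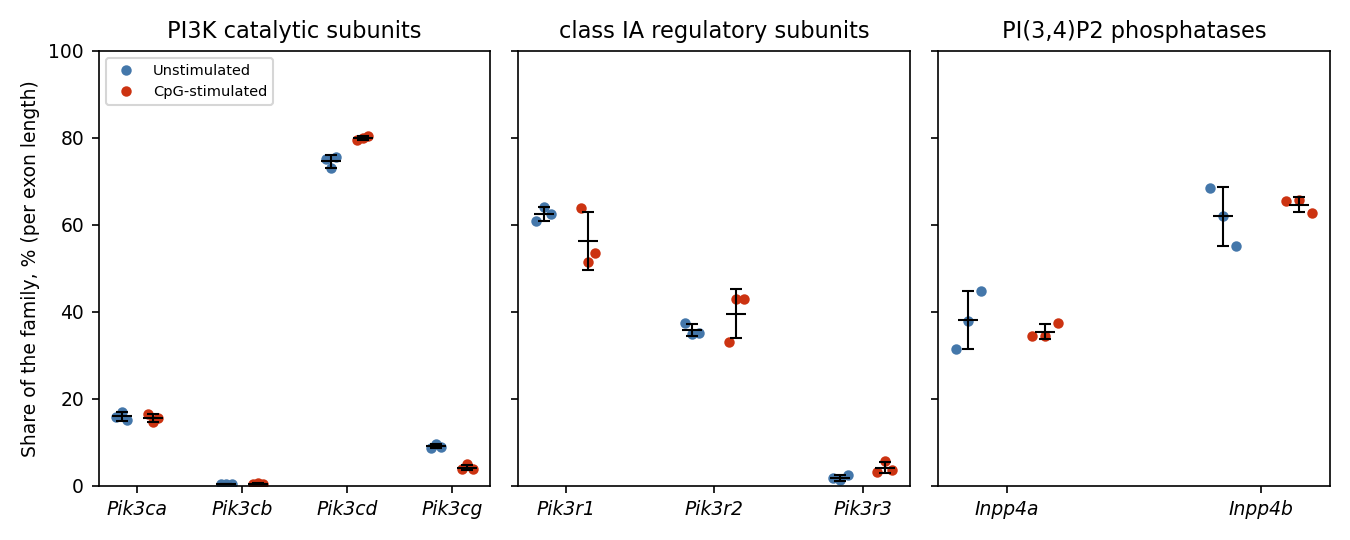
Share of each gene in the summed transcripts of its family, in percent per exon length, for class I catalytic subunits, class IA regulatory subunits and PI(3,4)P2 phosphatases. Points are samples (blue unstimulated, red CpG-stimulated) and black bars the mean and SD of 3; Pik3cd holds the highest share of the catalytic subunits in all samples, Pik3cg goes from 9.06% to 4.17%, and the groups overlap for Pik3r1 and Inpp4b.

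The order of Akt1 and Inpp5d per length differed between the groups as well. Akt1 was below Inpp5d by a log2 difference of -2.63, -2.63 and -2.70 per exon length in unstimulated replicates 1, 2 and 3. In the stimulated replicates it was above Inpp5d, by 1.51, 0.74 and 1.24. A similar inversion was seen for Pik3cd against Inpp5d, at -1.15, -1.19 and -0.96 without CpG and 1.24, 0.79 and 1.29 with CpG. These ratios show unequal changes of 2 transcripts and do not depend on a factor common to all genes of a sample.

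Promoters of the 9 genes, 14 stretches of 250 bases before to 50 bases after an annotated start, were taken from RefSeq (GRCm38.p6, the reference of C57BL/6J and not BALB/c mice). They were searched on both strands for 5 motifs: FOXO (GTAAACA), NF-κB (by its consensus), AP-1 (TGANTCA), the E-box CACGTG and ETS (CCGGAAGT). Only 3 matches were found, and they are shown as the 30 bases around them, with the motif in capitals and on the strand of the gene. The FOXO matches belong to 1 lowered gene, Pik3cg, and 1 raised gene, Akt1.
Pik3cg, chr12:32208544-32208573: tttttcctaaaGTAAACAaatgatcctcct
Akt1, chr12:112675027-112675056: atctaccctctTGTTTACactcctggtgaa
Pik3ap1, chr19:41385257-41385286: gctttcgggacaCACGTGgcacgagcaggg

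All 3 genes are on the minus strand. Positions are counted from the start site of the window that holds the match. The FOXO motif is at -92 of Pik3cg and at -161 of Akt1, where it reads in the opposite orientation, and the E-box at -172 of Pik3ap1. Pik3cg and Akt1 each have another window without a match. The Pik3cg match precedes the inner start only and lies within the annotated gene, which begins at 32208659 on the minus strand. Of 32851 promoters, 3.65% hold the FOXO motif and 7.15% the E-box. The NF-κB, AP-1 and ETS motifs are in 0.411%, 7.81% and 3.89% of promoters and in none of the 14 windows. Pik3ip1 and Inpp5d, with the largest changes, had no match in these windows. A match is a description of the sequence, and binding was not measured.

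Other genes of the pathway were counted in 5 lists of 67 genes, of which 64 could be tested. In these, 46 genes (71.9%) were lowered, 8 raised and 10 not called, where 36.7% of all genes tested were lowered. The median log2FC was -0.91. Further subunits of PI3K enzymes were lowered in 7 of 8 genes tested, with none raised. Pik3c2b, a class II enzyme, had the largest change, from 5.98 ± 0.03 to 4.12 ± 0.39 log2 CPM (SD, n = 3; log2FC -1.86, FDR = 2.56e-06). Pik3r2 (p85β) followed with a log2FC of -1.34 and Pik3r4, the regulatory subunit of the class III enzyme, with -1.33. Pik3ca had a log2FC of -0.79 (standard error 0.07, FDR = 3.24e-06). Pik3cb was at 1.37 ± 0.27 without and 0.48 ± 0.49 log2 CPM with CpG (SD, n = 3), and its log2FC of -0.89 (FDR = 0.0169) was not called without stimulated replicate 1 (-0.62, FDR = 0.0511) or without unstimulated replicate 3 (-0.73, FDR = 0.0754). Its log2FC was negative in all 14 alternatives.

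Among 9 other phosphoinositide phosphatases, 8 were lowered, against 36.7% of all genes tested. Inpp5e was not called (log2FC -0.09, FDR = 0.447; named after its value was seen). Inpp5k (log2FC -2.44), Inpp5a (-1.16), which acts on soluble inositol phosphates, and Synj1 (-1.05) were among those with the largest decreases.

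Of 15 receptors and adaptors that recruit PI3K or SHIP-1, 11 were lowered and 2 raised, where 36.7% of all genes tested were lowered and 37.6% raised. Blnk, which encodes an adaptor of the antigen receptor, was raised (log2FC 0.63; named after its value was seen). The largest decreases were found in Irs1 (-3.38), Dok3 (-2.76), an adaptor that recruits SHIP-1, Cd22 (-2.40), an inhibitory receptor, and Gab1 (-2.28). Stimulated replicates 2 and 3 had Irs1 at or under the value of 3 reads, so the size of its change is uncertain. In a list headed PIP3-binding kinases and adaptors, 12 of 13 genes tested were lowered, led by Dapp1 (-1.83), Tec (-1.74), Btk (-1.66) and Dock8 (-1.51). The heading is loose, as not every protein of this list, Plekha1 among them, binds PIP3 itself. Plekha1 was raised (0.31; named after its value was seen).

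The list of mTOR, TSC and AKT regulators was mixed: 8 of 19 genes tested were lowered, 5 raised and 6 not called, with a median log2FC of -0.04. The lowered share, 42.1%, is near the 36.7% of all genes tested, and 26.3% were raised, against 37.6%. Mtor was raised from 6.62 ± 0.08 to 7.46 ± 0.20 log2 CPM (SD, n = 3; log2FC 0.84, FDR = 2.06e-05), a change near that of Akt1. The pseudokinases of the Tribbles family diverged, as Trib3 was raised (log2FC 2.46), whereas Trib2 was lowered (-2.52). All 3 FOXO factors listed were lowered: Foxo1 from 8.61 ± 0.05 to 7.48 ± 0.06 log2 CPM (SD, n = 3; log2FC -1.14), Foxo3 by a log2FC of -2.004 and Foxo4 by -1.73. The call of Rheb, the GTPase that activates mTOR, was gained with the replicate number as a block (log2FC 0.16, FDR = 0.0782 without and 0.0280 with the block).

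**Figure D4:**
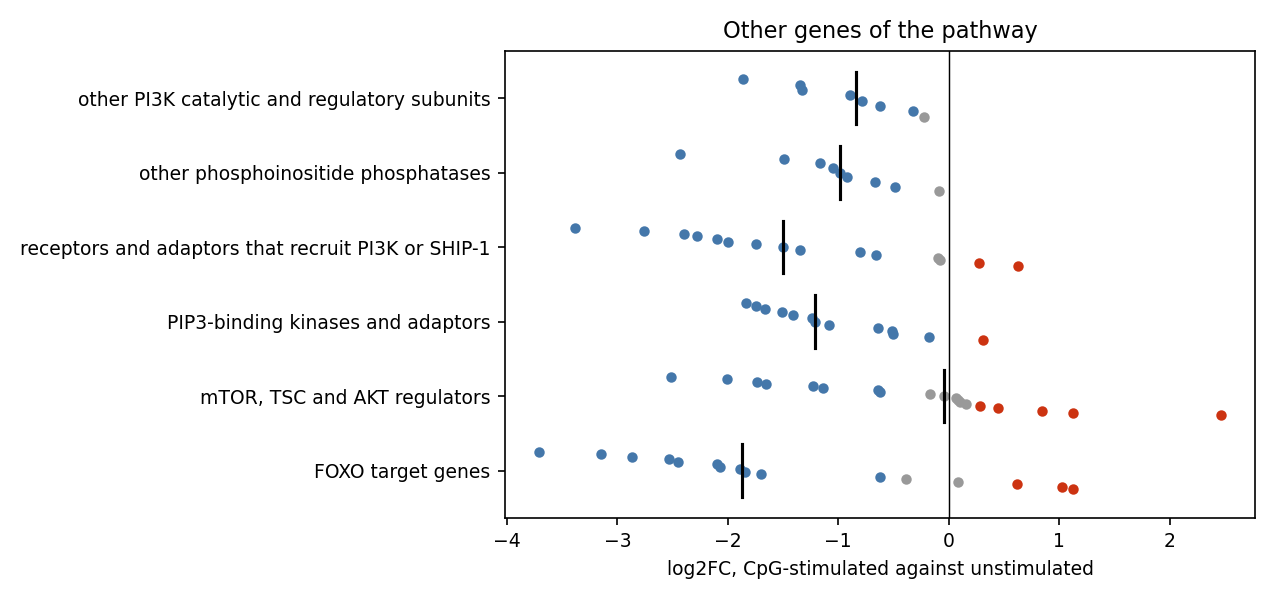
log2FC of CpG-stimulated against unstimulated samples for each tested gene of 5 pathway lists and of the FOXO targets. Points are genes (blue lowered, red raised, gray not called) and black lines are medians; phosphatases and further PI3K subunits hold no raised gene, and the medians run from -1.87 in FOXO targets to -0.04 in mTOR, TSC and AKT regulators.

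A list of 16 genes known as FOXO targets includes Pik3ip1 and shares Irs2, Rictor and Trib1 with the lists above. It held 11 lowered (68.8%) and 3 raised genes (18.8%), against 36.7% and 37.6% of all genes tested, with a median log2FC of -1.87. The largest decreases were S1pr1 (-3.71), a receptor for lymphocyte egress, Pik3ip1 (-3.15), Txnip (-2.87), which limits glucose uptake, and Cdkn1b (-2.54), an inhibitor of cyclin-dependent kinases. In the other direction Trib1 (1.13), Bcl6 (1.03) and Ccr7 (0.62) were raised, and Klf2 (-0.38) and Il7r (0.09) were not called; except for those that the rule named, these genes were named after their values were seen. With the replicate block Klf2 was called as well (FDR = 0.173 without and 0.00355 with the block).

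Finally, genes with the most similar values over the 6 samples were sought for the members at both ends, as the Euclidean distance of values centered on each gene's mean, over 11232 other genes. For Akt1 these were Wars (distance 0.04 log2 units), Nol9 (0.06) and Mrpl37 (0.07), with log2FC values from 0.95 to 0.98. For Pik3ip1 they were Elmsan1 (0.12), E330020D12Rik (0.26) and Lrrk2 (0.27), all with a log2FC between -3.21 and -2.99. The distances were larger for Pik3ip1 than for Akt1.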

How the data were processed

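RNA-seq values of 3 CpG-stimulated and 3 unstimulated samples were used. Per the labels and the methods, the authors trimmed reads (Trim Galore 0.6.5), aligned them to mm10 (STAR 2.6.1a) and counted them per gene (featureCounts of Subread 2.0.1). After quantile normalization, voom gave the deposited log2 CPM, which are not counts and on which a change in total RNA per cell is not visible. The gene annotation and the strand setting are not given in the sources used here. The deposited values hold a shift by replicate number: in 393 cases where 1 sample stood apart from its partner of equal number by about 1 read, the partner lay off the other samples by 0.167 of that step. No adjustment by replicate number is named in the sources used here. Samples of equal number share this shift, and its part in the correlations and block values was not tested.

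The fit was made in R 4.3.3 with limma 3.58.1 (eBayes with a trend). A gene entered it if at least 3 samples exceeded the value of 10 reads (-0.76), which left 11233 genes. P values measure the spread between these samples, which may be technical, and an exact permutation of 3 against 3 cannot go below 0.1. The main fit had no block. Deviations of samples with the same number correlated (0.435, 0.224 and 0.300, against -0.281 to 0.0279 for other pairs), so the numbers were taken to pair the samples, and a second fit held the replicate number as a block. The 9 genes and all lists were chosen with earlier results of these data known. Named were the 9 genes, up to 4 called genes with the largest change per list, some genes whatever their values (among them Pik3ca, Pik3cb, Foxo1 and Mtor), and the 3 nearest genes in pattern for the members at both ends. Gene models were from GENCODE M21 (GRCm38). Adgre1, Jchain and Hbb-bs were matched through older symbols. Some genes of the lists are counted but not reported by name here.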

Additional observations from a re-analysis of the deposited data

How the results depend on the processing

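Under 14 alternatives (filters on low values, the replicate block, log2(CPM + 1), no variance trend, centering of samples, female samples only, and samples left out), 8 of the 9 PI3K genes were called each time, and 4 or 5 with a log2FC beyond 1. Among 572 single values of 41 named genes, 563 kept direction and call. Many of these genes were named because they were called with the largest changes of their list, so this count does not describe genes in general. Pik3r5 turned its sign when single samples or replicate 2 were left out, from -0.085 (without CpG-stimulated replicate 3) to 0.069 (without CpG-stimulated replicate 1); it was not called in any setting. Pik3cb lost its call in 4 settings, among them no filter (FDR = 0.0507) and female samples only (log2FC -0.79, FDR = 0.108); the cause was not tested. With the replicate block 0 of the 9 calls changed, 55 instead of 54 pathway genes and 15 instead of 14 FOXO targets were called, the added calls being Rheb and Klf2. Replicate 2 of both groups was left out as an alternative chosen after seeing the data. Sex cannot be told apart from replicate number 3, and with quantile normalization a change in the RNA content of cells is not measured.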

Other observations

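The stimulated sample of replicate 2 was the one nearest to the unstimulated samples in 6 of the 8 called PI3K genes (75%), among them Pik3ip1, Inpp5d, Pik3cg and Akt1. The same was found for 11 of 14 called FOXO targets (78.6%), 30 of 54 other called pathway genes (55.6%) and 52.3% of all called genes. This replicate also had the highest erythroid transcripts, and their part in this was not tested.

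The log2FC of Pik3ip1 was -3.51 in the male pair (replicate 3) and -2.97 in the female pairs, the widest gap between the sexes among the 9 genes (difference -0.54, unadjusted p = 0.140 for the limma interaction over 6 samples). With 1 male sample per group, the spread among male samples is not measured, and the FDR of 1 for each of the 9 genes does not show that the sexes respond alike.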
